A study of Homo sapiens with 6 samples.

Results

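Transcripts of 9 chemokine receptor genes, CCR2, CCR4, CCR6, CCR7, CCR9, CCR10, CXCR3, CXCR4 and CXCR5, were followed in Jurkat cells that overexpressed a splicing isoform of PD-1. The members were selected by gene symbol from a deposited table of 59248 symbols, with their values in the same comparison already known, so their differences between the groups are given as a description and carry no p-value. RNA was sequenced in bulk from 3 libraries labelled PDCD1-28 OE and 3 libraries labelled vector, both of Jurkat, an established line grown from a human T-cell leukemia. In the growth protocol both groups go by the name Jurkat KO-1. The meaning of KO-1, the way the isoform or the vector was delivered and whether the cells are 1 clone are not given in the sources used here. The libraries are numbered within each group but not said to come from separate cultures, so the spread between them may be technical.

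Chemokine receptors are membrane receptors that pass through the membrane in 7 segments, couple mainly to inhibitory G proteins and steer leukocytes along gradients of small secreted proteins, the chemokines. Which receptors a T cell carries goes with where it travels. CCR7, which binds CCL19 and CCL21, guides T cells into lymph nodes. CCR4, which binds CCL17 and CCL22, and CCR10, which binds CCL27 and CCL28, are known from skin-homing T cells. CCR9, the receptor of CCL25, serves the thymus and the small intestine, and CXCR4, the receptor of CXCL12, retains cells in bone marrow and is used by T-cell leukemias.

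Stretches of upstream sequence show how unlike the starts of the main genes are, and they are given for CCR4 and CCR9, the most abundant of the genes that fell by over 2-fold, and for CXCR4, the most abundant receptor gene of all. They come from RefSeq on GRCh38.p14, run 5′ to 3′ on the strand of the gene, and end at the gene start of GENCODE 29. CCR4 is on the plus strand at chr3:32951394-32951573, CCR9 on the plus strand at chr3:45886293-45886503, and CXCR4 on the minus strand at chr2:136118166-136118399. Capitals mark the letters of a GATA motif in CCR4, and of an NRF1 motif and 2 overlapping TATA box matches, 1 on each strand, in CXCR4.
CCR4: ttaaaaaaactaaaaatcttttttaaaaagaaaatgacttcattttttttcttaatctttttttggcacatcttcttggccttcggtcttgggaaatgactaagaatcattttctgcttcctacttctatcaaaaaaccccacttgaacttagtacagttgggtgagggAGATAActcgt
CCR9: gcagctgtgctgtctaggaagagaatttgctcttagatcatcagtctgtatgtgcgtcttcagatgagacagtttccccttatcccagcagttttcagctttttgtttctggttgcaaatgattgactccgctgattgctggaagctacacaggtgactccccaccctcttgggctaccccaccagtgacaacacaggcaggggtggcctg
CXCR4: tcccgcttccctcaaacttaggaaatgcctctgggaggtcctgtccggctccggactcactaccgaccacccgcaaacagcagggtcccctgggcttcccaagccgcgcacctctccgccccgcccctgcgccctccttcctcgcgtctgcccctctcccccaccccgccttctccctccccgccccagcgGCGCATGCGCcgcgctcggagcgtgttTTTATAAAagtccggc
The 250 bases before the RefSeq gene start were 39.6% G or C in CCR4, 51.2% in CCR9 and 68.0% in CXCR4, against a median of 58.0% over 35116 such stretches. They held 24 CG pairs in CXCR4, 5 in CCR4 and 4 in CCR9. Entries were matched for 7 of the 9 members, and 5 motifs were searched on both strands. AGATAA, the GATA motif, was in CCR4 of the 7 and in 9.17% of all 35116. TATAAA was in CXCR4 and in 10.7% of all, and the NRF1 motif was in CXCR4 and in 5.07% of all. TGANTCA, the AP-1 motif, was in CCR2, whose stretch lies inside the longer GENCODE gene, and in 6.57% of all. CCGGAAGT, the ETS motif, was in none of the 7 and in 3.42% of all.

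The libraries held between 59911578 and 84220970 estimated counts, with vector replicate 2 the deepest. The first 2 principal components held 61.8% and 12.1% of the variance. PDCD1, the gene of PD-1, had 807 to 1059 estimated counts per overexpression library and 14 to 18 per vector library. All 12 T-lineage markers had counts in both groups, with summed levels of 2241 to 2286 CPM in overexpression and 2392 to 2615 CPM in vector. CPM, the estimated counts scaled to a common library total, were computed with the TMM-adjusted library sizes of edgeR. Of the 21055 genes that passed the expression filter of edgeR, 46.1% were called different between the groups at an adjusted p of 0.05, 23.4% as lower and 22.6% as higher in overexpression. These shares are the background for every count of called genes given here.

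With overexpression 6 members fell, CCR4, CCR2, CXCR3, CCR9, CCR7 and CXCR4, and none of the 9 rose. CCR4 was 22.6-fold and CXCR4 1.23-fold lower, while CCR2 and CXCR3, at or under the floor in every overexpression library, have falls of uncertain size. CXCR4 was the most abundant member in both groups. Of the 9 members 7 passed the expression filter, 6 were called lower and 4 of these were lower by at least 2-fold, beside 23.4% and 6.22% of all tested genes. None was called higher by at least 2-fold, beside 8.39% of all tested genes. The groups did not overlap, with all overexpression libraries below all vector libraries, in 6 of the 7 tested members and in 28.6% of all tested genes, or in 58.7% with either direction counted. CCR10 passed the filter and was not called, and CCR6 and CXCR5 were too low to be tested. Since the comparison is the one the members were chosen on, these counts are not read as evidence about the family. In bulk RNA, fewer cells that carry a receptor and less RNA of it per cell cannot be told apart.

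**Figure D1:**
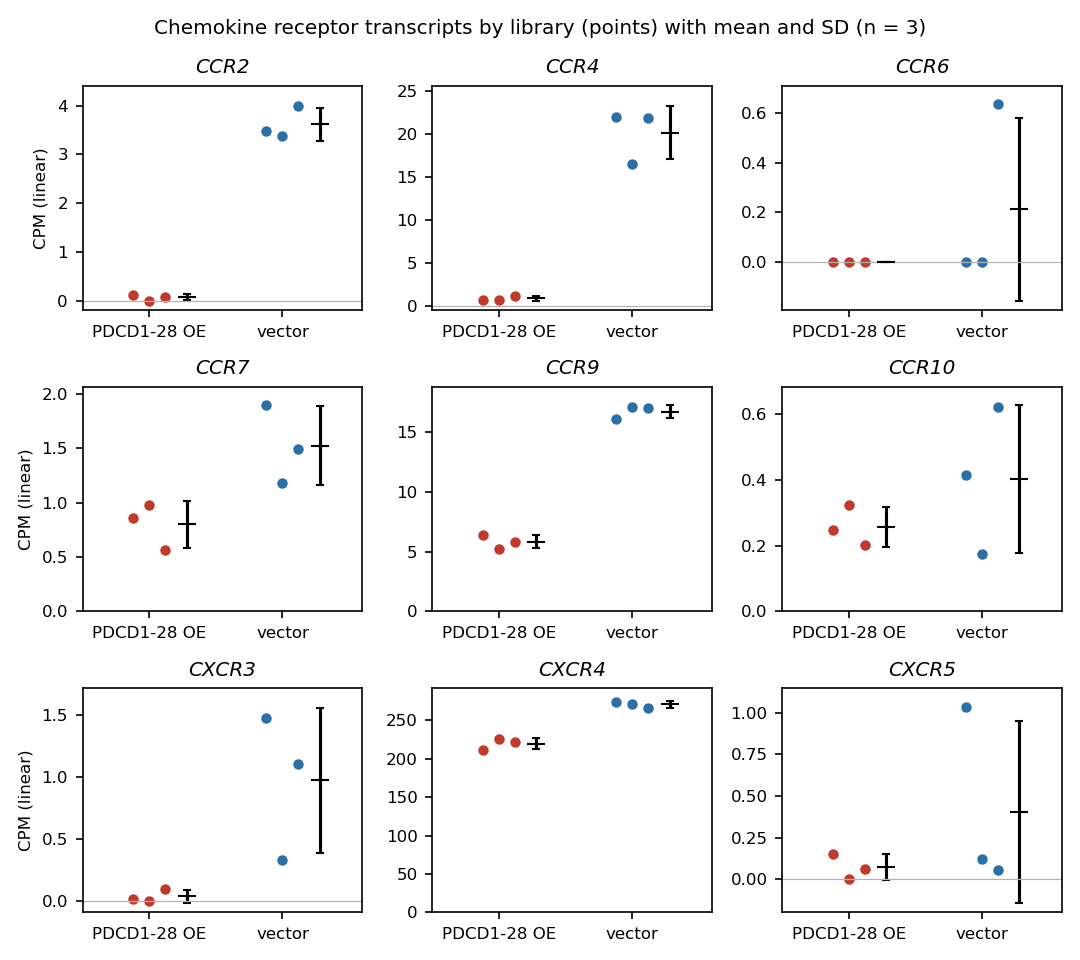
Level of each of the 9 receptor genes in CPM, on linear axes that differ between panels, in the 3 PDCD1-28 overexpression libraries (left) and the 3 vector libraries (right), with mean and SD beside the points. CCR2, CCR4 and CXCR3 lie near 0 in overexpression, CCR9 and CXCR4 are separate but well above 0 in both groups, and the points of CCR6, CCR10 and CXCR5 overlap.

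CCR4 was nearly lost with overexpression, whereas in vector it was among the most abundant receptor transcripts after CXCR4. Its level was 0.724, 0.766 and 1.19 CPM in overexpression libraries 1 to 3, against 21.9, 16.6 and 21.9 CPM in vector libraries 1 to 3. Every overexpression library lay far below every vector library. These levels rest on 47, 57 and 76 estimated counts in overexpression, against 1272, 1337 and 1481 in vector, all above the floor of 12 set per library. CCR4 was 22.6-fold lower in overexpression, with a log2 fold change of -4.50 ± 0.23 (SE, n = 3 each). Without any 1 library, or with another test, scaling or filter, its log2 fold change stayed between -4.75 and -4.37. The gene lies on chromosome 3 (32951574 to 32956349, plus strand, hg38).

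CCR2 and CXCR3 were close to undetected in overexpression. CCR2, the receptor of CCL2 on monocytes and memory T cells, had 8, 0 and 5 estimated counts in overexpression and 202, 272 and 270 in vector. CXCR3, the receptor of the interferon-induced chemokines CXCL9, CXCL10 and CXCL11 on T helper 1 and effector T cells, had 1, 0 and 6 in overexpression and 86, 27 and 75 in vector. None of these 6 overexpression values exceeds the floor, which leaves the size of either fall uncertain. The fitted log2 fold changes were -5.76 ± 0.62 for CCR2 and -4.72 ± 0.96 for CXCR3 (SE, n = 3 each). Set at the floor in each overexpression library, the ratio of vector to overexpression would be 20.3 for CCR2 and 5.48 for CXCR3. The fitted value of CCR2 was -6.55 without overexpression replicate 1 and -5.14 without overexpression replicate 2. That of CXCR3 was -6.75 without overexpression replicate 3 and -4.11 without overexpression replicate 2. The vector libraries of CXCR3 also spread, and vector replicate 2, with 0.335 CPM, was below replicates 1 and 3, with 1.48 and 1.11 CPM.

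CCR9 fell and stayed well expressed. It had 6.34, 5.24 and 5.83 CPM in overexpression libraries 1 to 3 and 16.0, 17.0 and 17.0 CPM in vector libraries 1 to 3. The groups were wide apart and each was tight. The fall was 2.87-fold, with a log2 fold change of -1.52 ± 0.12 (SE, n = 3 each), or between -1.59 and -1.45 over all alternative settings. CCR9 lies on chromosome 3 (45886504 to 45903177, plus strand, hg38) inside the span of LZTFL1, a gene of ciliary transport on the opposite strand with which it shares no exon base.

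CCR7 was lower by 1.89-fold, and the call was a marginal one. Its level was 0.862, 0.981 and 0.563 CPM in overexpression libraries 1 to 3, and 1.90, 1.18 and 1.49 CPM in vector libraries 1 to 3. The groups did not overlap, but the highest overexpression library came near the lowest vector library. The log2 fold change was -0.92 ± 0.31 (SE, n = 3 each). Leaving out any 1 overexpression library ended the call (-0.97, -1.09 and -0.72 for replicates 1 to 3), as did leaving out vector replicate 1 or 3 (-0.74 and -0.94), and the call was also lost with the replicate number as a block (-0.93) and with no filter (-0.93). The direction was the same in all of these.

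CXCR4 fell slightly and remained the dominant receptor transcript. It had 211, 226 and 222 CPM in overexpression libraries 1 to 3, against 274, 272 and 266 CPM in vector libraries 1 to 3. The groups were separate, and the spread within each was small beside the distance between them. The fall was 1.23-fold, with a log2 fold change of -0.30 ± 0.04 (SE, n = 3 each), or between -0.33 and -0.25 over all alternative settings. CXCR4 lies on chromosome 2 (136114349 to 136118165, minus strand, hg38), where 925 protein-coding genes had a median log2 fold change of -0.32 and 47.5% were called lower. Its 20 nearest tested protein-coding genes, 10 on either side, had a median of -0.39, with 13 lower and 2 higher. The log2 fold change of CXCR4 was thus near the median of its chromosome, and the part of the chromosome in its change was not tested.

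CCR10, CCR6 and CXCR5 were at the lower limit of the data. CCR10 had 16, 24 and 13 estimated counts in overexpression and 24, 14 and 42 in vector, and the groups overlapped, with a log2 fold change of -0.63 ± 0.54 (SE, n = 3 each). Of the exon bases of CCR10, 381 are shared with CNTNAP1 on the opposite strand, and the strand setting of the counting was not given in the sources used here, so reads of these genes may not be told apart. CCR6, which binds CCL20 and marks T helper 17 cells, was at 0 in all 3 overexpression libraries and in vector replicates 1 and 2, with 43 estimated counts in vector replicate 3. CXCR5, which binds CXCL13 and guides follicular helper T cells, had 10, 0 and 4 estimated counts in overexpression and 60, 10 and 4 in vector. The high value of CXCR5 was that of vector replicate 1 alone. CXCR5 shares 3925 exon bases with BCL9L on the opposite strand, so its counts are uncertain for the same reason. No fold is given for CCR6 or CXCR5.

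The make-up of the 9 genes changed with these falls. Receptors outside the 9 are left out of these shares and sums. Among them CCR8 had 3.62, 3.22 and 3.63 CPM in overexpression and 3.98, 6.99 and 4.44 CPM in vector. CX3CR1 and CXCR6, also left out, were above the floor in every library. CXCR4 held 96.5% ± 0.361 of the estimated counts of the 9 genes in overexpression and 86.0% ± 1.30 in vector (SD, n = 3 each). Summed over the 8 other genes, the level was 8.47, 7.31 and 8.03 CPM in overexpression and 46.3, 38.8 and 46.8 CPM in vector, so overexpression kept 18.1% of the vector level. Among those 8 genes the share of CCR4 was 11.3% ± 3.21 in overexpression and 45.6% ± 2.54 in vector, while that of CCR9 was 73.1% ± 1.65 in overexpression and 38.3% ± 4.94 in vector (SD, n = 3 each). CCR7 held 10.2% ± 3.20 in overexpression and 3.44% ± 0.574 in vector, a larger share of a smaller total. Of the remaining genes CCR10 held the largest share in overexpression, at 3.3% ± 0.99, and CCR2 in vector, at 8.25% ± 0.633 (SD, n = 3 each).

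**Figure D2:**
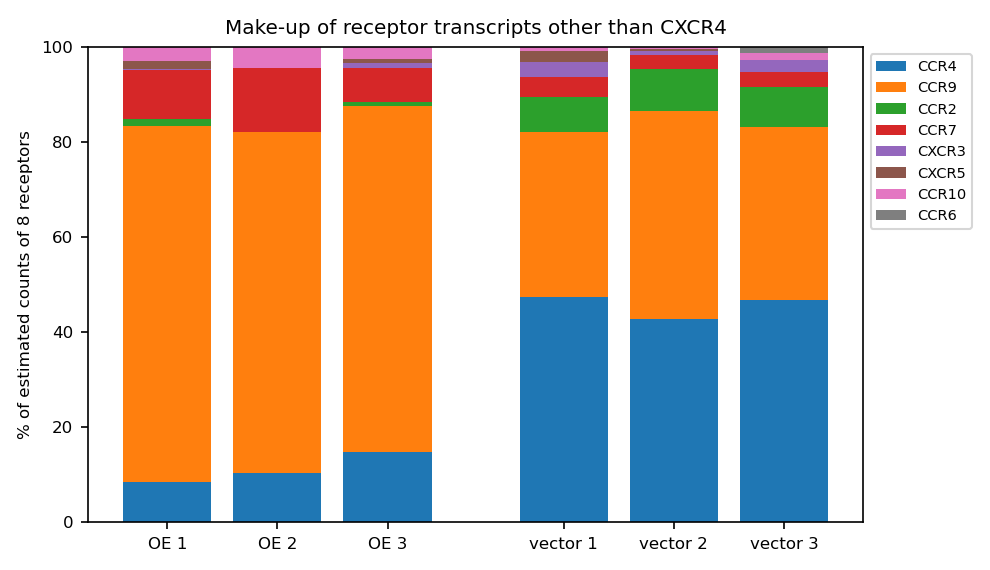
Share of the estimated counts of the 8 receptor genes other than CXCR4, in percent, in each overexpression (OE) library and each vector library. CCR9 makes up 71.7% to 74.9% of each overexpression bar, whereas CCR4 and CCR9 together fill most of each vector bar.

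Levels were compared between genes as CPM per kilobase of merged GENCODE 29 exons, which rests on that annotation and not on the isoforms present. In overexpression the order was CXCR4 at 98.9 ± 3.44, CCR9 at 2.07 ± 0.197, CCR7 at 0.320 ± 0.0858 and CCR4 at 0.289 ± 0.0831 CPM per kilobase (SD, n = 3). CCR7 and CCR4 overlapped there, as did all neighbours in the order below CCR10. In vector the order was CXCR4 at 121.7 ± 1.95, CCR4 at 6.51 ± 0.998, CCR9 at 5.94 ± 0.198, CCR2 at 0.969 ± 0.0887, CCR7 at 0.607 ± 0.144 and CXCR3 at 0.522 ± 0.314 CPM per kilobase (SD, n = 3). CCR4 and CCR9 overlapped in vector, and so did all neighbours from CCR7 down. In vector replicates 1 and 3 CCR4 was above all CCR9 values, at 7.09 and 7.08 CPM per kilobase. In vector replicate 2 it was below them, at 5.35. Outside the 9 members, CCR8 was above CCR9 in every overexpression library, at 2.65 ± 0.175 CPM per kilobase (SD, n = 3). CX3CR1 and CXCR6 had means of 0.54 and 0.37 there, above that of CCR7. In vector CCR8 and CXCR6, at 3.90 ± 1.23 and 1.20 ± 0.340, had means above that of CCR2 (SD, n = 3).

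Among 8 other signalling chemokine receptors some fell as well, and 1 rose. Of these 6 were tested, 2 fell, 1 rose and 3 were not called, with a median log2 fold change of -0.64, beside 0.02 over all tested genes. CXCR6, the receptor of CXCL16, fell with a log2 fold change of -1.70 ± 0.26 (SE; edgeR adjusted p = 0.00107) and CCR1, a receptor shared by several inflammatory chemokines, with -2.11 ± 0.45 (edgeR adjusted p = 0.00588). CCR1 had 8, 21 and 22 estimated counts in overexpression, replicate 1 being under the floor, and 83, 58 and 75 in vector.

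CXCR2, the neutrophil receptor of CXCL8, was called higher at very low levels, with 12, 18 and 23 estimated counts in overexpression and 4, 5 and 0 in vector. Its log2 fold change was 2.54 ± 0.86 (SE; edgeR adjusted p = 0.0409). The call was lost when any single library was left out, with the replicate block, with DESeq2 and with no filter (adjusted p from 0.0288 to 0.151 over all alternatives). CCR8, CX3CR1 and XCR1 were not called, with log2 fold changes of -0.56 ± 0.23, -0.48 ± 0.36 and -0.71 ± 0.42 (SE). The value of CX3CR1 was 0.01 without vector replicate 2, so its direction rests on that library. CCR8 was called lower with DESeq2 (adjusted p = 0.0494) and without vector replicate 1 (edgeR adjusted p = 0.0468). CCR8 levels were 3.62, 3.22 and 3.63 CPM in overexpression and 3.98, 6.99 and 4.44 CPM in vector, with vector replicate 2 the highest. CCR3 had 0, 0 and 1 estimated counts in overexpression and 25, 11 and 26 in vector and was not tested with this filter, and CXCR1 was at 0 in every library. Of the receptor genes compared, CXCR1 and CXCR2 alone shared any stretch of 100 identical transcript bases, covering under 1% of either (0.963% and 0.730%).

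Of the 5 tested atypical receptors, which bind chemokines without G protein signalling, ACKR3 and CCRL2 fell and ACKR2, ACKR4 and GPR182 were not called. ACKR3, a scavenger of CXCL12 and so a partner of CXCR4, had 0.616, 0.390 and 0.469 CPM in overexpression and 1.74, 1.07 and 1.80 CPM in vector. Its log2 fold change was -1.64 ± 0.32 (SE; edgeR adjusted p = 0.00364) and that of CCRL2, which presents chemerin, -1.69 ± 0.40 (edgeR adjusted p = 0.00897). Both groups of either gene were separate. ACKR3 lies on chromosome 2, as CXCR4 does. Its 20 nearest tested protein-coding genes had a median log2 fold change of -0.79, with 16 lower and 1 higher. The part of the chromosome in the change of ACKR3 was not tested. ACKR2, ACKR4 and GPR182 had log2 fold changes of 0.23 ± 0.37, 0.70 ± 0.48 and -0.64 ± 0.41 (SE), and their groups overlapped.

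**Figure D3:**
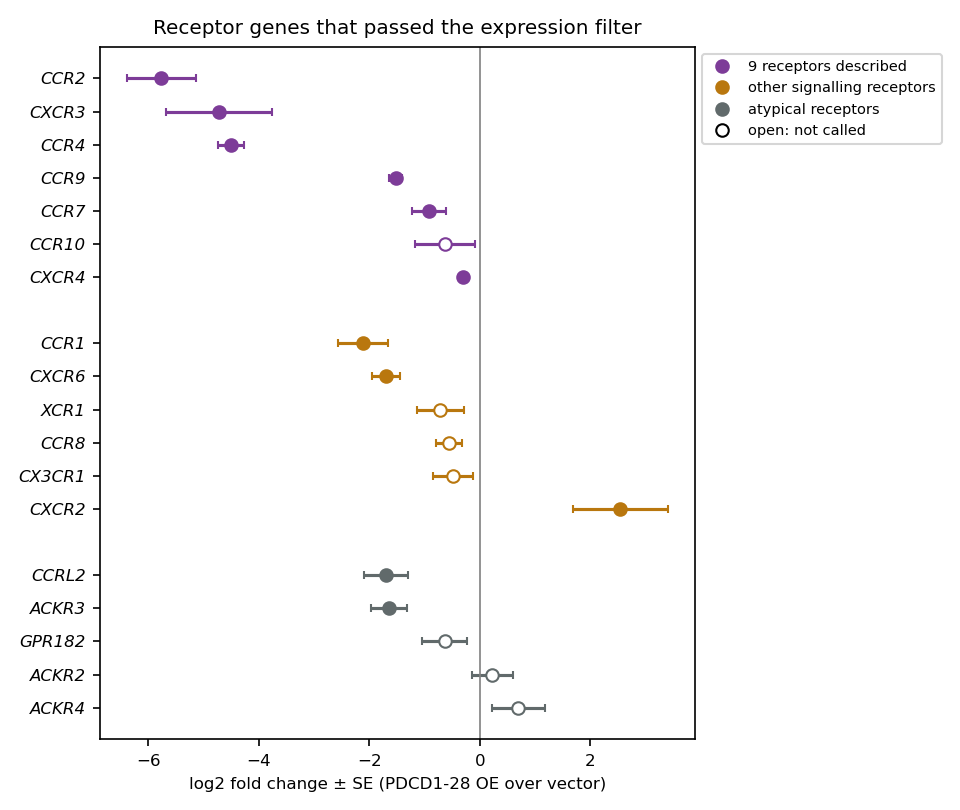
Log2 fold change of overexpression over vector with its SE for the 18 receptor genes that passed the expression filter, in 3 sets (the 9 receptors described, the other signalling receptors, the atypical receptors), with open circles for genes not called. Of the 18, 10 are called lower and 1, CXCR2, higher, and 6 of the 10 are members chosen on this comparison.

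Several of the falling genes lie together on the short arm of chromosome 3. A block of 523.5 kb (45886064 to 46409523, from RefSeq gene ends on GRCh38.p14) holds CCR9, CXCR6, XCR1, CCR1, CCR3, CCR2 and CCRL2, in this order, and 2 of the 9 members, CCR9 and CCR2, are among them. Of these 7 receptor genes 6 were tested, 5 fell and none rose, with a median log2 fold change of -1.69. The counts and the median include CCR9 and CCR2, which were chosen on this comparison, so they are a description. Of the rest CXCR6, CCR1 and CCRL2 fell, with -1.70, -2.11 and -1.69, and XCR1 was not called, at -0.71. Within 1 Mb of the block on either side, 19 other protein-coding genes were tested, of which 11 fell, 3 rose and 5 were not called, with a median of -0.27. The median of chromosome 3 as a whole was 0.04 over 775 protein-coding genes. Of the genes counted here CCR2 had the lowest log2 fold change, of uncertain size since CCR2 was under the floor in every overexpression library.

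The genes around the block did not move as 1 unit. The genes other than receptors are named here after their values were seen. FYCO1, whose span holds CXCR6 on the other strand, was higher, at 0.29 ± 0.05 on the log2 scale (SE; edgeR adjusted p = 0.00134). On the side of CCR9, LZTFL1 fell with -0.99 ± 0.12 and SLC6A20, a transporter gene, with -2.63 ± 0.38 (SE), while SACM1L beyond them was not called at -0.01 ± 0.06. The vector libraries of SLC6A20 spread widely, at 48.5 ± 29.6 CPM, against 7.85 ± 0.403 CPM in overexpression (SD, n = 3 each). On the side of CCRL2, LTF, the gene of lactoferrin, fell with -2.26 ± 0.47 (SE), and ALS2CL, farther out, rose with 3.48 ± 0.37. LTF had 0.102 ± 0.0344 CPM in overexpression, where the floor was 0.178 CPM on average, and ALS2CL had 0.211 ± 0.0929 CPM in vector (SD, n = 3). The size of either change is therefore uncertain. CCR4, on the same arm, had 20 nearest tested genes with a median log2 fold change of -0.10, of which 7 were lower and 6 higher.

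**Figure D4:**
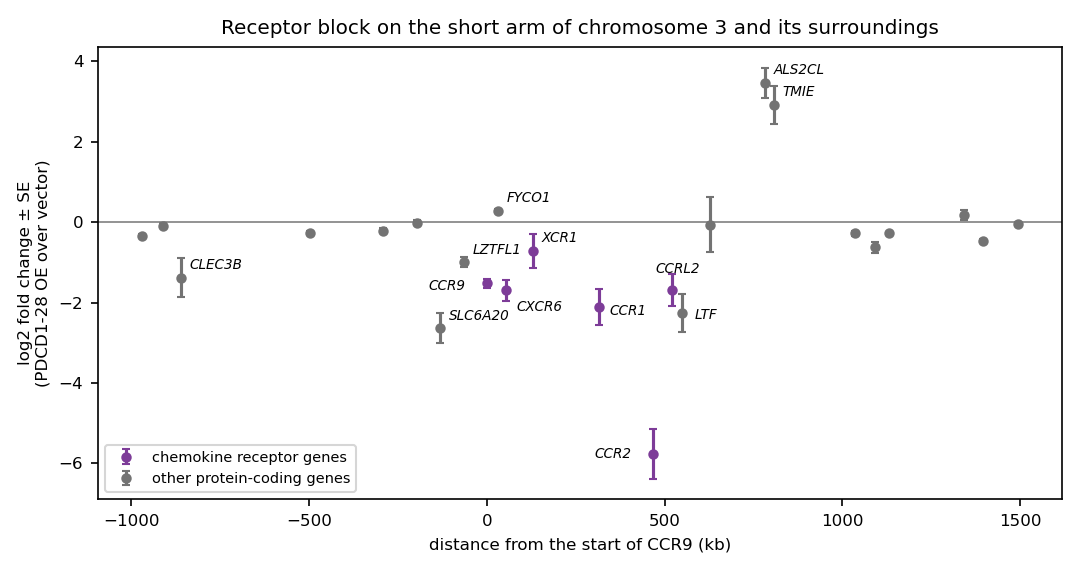
Log2 fold change of overexpression over vector with its SE against the distance from the start of CCR9, in kilobases, for tested protein-coding genes around the receptor block of chromosome 3. The 6 tested receptor genes lie below 0, CCR2 lowest, while FYCO1 among them and ALS2CL and TMIE beyond them lie above 0. CCR9 and CCR2 were chosen on this comparison. ALS2CL and TMIE had means of 0.211 and 0.0790 CPM in vector, so the size of either rise is uncertain.

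The ligands of the 9 members were at the lower limit of the data. Of the 20 ligands of the 9 members, 11 had no count in any library, 19 were at or under the floor of 12 in every library and none passed the filter. The exception was CXCL11, a CXCR3 ligand, with 13, 0 and 20 estimated counts in overexpression and 0 in all 3 vector libraries. Of 24 ligands of other receptors 5 exceeded the floor in some library (CCL1, CCL5, CXCL3, CXCL16 and CXCL17), 2 passed the filter and neither was called. CXCL3, a CXCR2 ligand, had 87, 47 and 66 estimated counts in overexpression and 31, 148 and 64 in vector. CXCL16, the ligand of CXCR6, had 31, 39 and 55 in overexpression, against 19, 95 and 41 in vector. The groups of both overlapped, with vector replicate 2 the highest library. Their log2 fold changes were -0.15 ± 0.47 and -0.19 ± 0.49 (SE), with no settled direction: they ranged between -0.49 and 0.42 for CXCL3 and between -0.53 and 0.39 for CXCL16 over the alternatives, and CXCL16 was at 0.39 without vector replicate 2. The ligands of CCR4 and CXCR4 were thus not detectable above the floor at this depth.

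Among heterotrimeric G proteins and their direct effectors, 23 of 26 genes were tested, 9 fell and 4 rose, with a median log2 fold change of -0.20, and 7 of the falls and 3 of the rises were called under every alternative. GNAI2, an inhibitory alpha subunit gene abundant in lymphocytes, had 390.4 ± 11.7 CPM in overexpression and 344.9 ± 14.7 CPM in vector (SD, n = 3 each). Its log2 fold change was 0.18 ± 0.05 (SE; edgeR adjusted p = 0.0157). That call was lost when overexpression replicate 1 or 3 or vector replicate 3 was left out (adjusted p between 0.00705 and 0.0695 over all alternatives). GNAI3, another inhibitory alpha subunit gene, went the other way, with a log2 fold change of -0.21, and was called lower under all 15 alternatives. The largest of the rises was in GNAO1, an alpha subunit best known from neurons, at 86.2, 88.7 and 90.7 CPM in overexpression and 6.66, 13.9 and 9.69 CPM in vector. Its log2 fold change was 3.13 ± 0.22 (SE; edgeR adjusted p = 2.35e-05). The beta subunit gene GNB4 rose with 1.37 ± 0.11 (edgeR adjusted p = 3.39e-05). GNAQ, the alpha subunit of another class, fell with -0.62 ± 0.05 (edgeR adjusted p = 4.15e-05) and the common beta subunit gene GNB1 with -0.43 ± 0.04 (edgeR adjusted p = 5.51e-05).

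Genes that switch receptors off moved both ways, with 8 lower and 5 higher of 23 tested and a median of -0.05, and 6 of the falls and all 5 rises were called under every alternative. ARRB1, the gene of beta-arrestin 1, which binds phosphorylated receptors, had 9.52, 9.10 and 9.28 CPM in overexpression and 37.3, 41.9 and 40.9 CPM in vector. Its log2 fold change was -2.11 ± 0.08 (SE; edgeR adjusted p = 1.62e-06), whereas ARRB2, the other arrestin gene of this kind, was not called at 0.07. STAM, an adaptor of endosomal sorting, fell with -1.19 ± 0.12 (edgeR adjusted p = 0.000116). The kinase genes GRK3 and GRK2, whose products phosphorylate active receptors, rose with 0.91 ± 0.05 and 0.46 ± 0.04 (SE; edgeR adjusted p = 5.59e-06 and 9.72e-05). Both kinases were higher in every overexpression library than in any vector library.

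Among chemotaxis effectors 14 of 23 tested genes fell and 2 rose, none by 2-fold, with a median log2 fold change of -0.25. Of the falls 10 were called under every alternative, while RHOH, CRKL, FERMT3 and CFL1 lost their calls with the replicate block and with upper-quartile factors, among others. RAC1, the small GTPase that drives actin at the leading edge, had a log2 fold change of -0.94 ± 0.05 (SE; edgeR adjusted p = 4.62e-06), and ELMO1, which acts with DOCK proteins on RAC, of -0.86 ± 0.06 (edgeR adjusted p = 1.79e-05). RAC2, the GTPase of blood cells, and ARHGEF1, an activator of RhoA, rose with 0.33 ± 0.09 and 0.21 ± 0.07 (SE; edgeR adjusted p = 0.0181 and 0.0468). The RAC2 call was lost when any 1 of the overexpression libraries was left out. That of ARHGEF1 was lost then too, and without vector replicate 1, with no filter, with DESeq2 size factors and with factors computed without chromosomes 2 and 9 (adjusted p from 0.0171 to 0.141 over all alternatives, and from 0.000807 to 0.0664 for RAC2).

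Of 18 other receptors that guide leukocytes 12 were tested, 3 fell and 2 rose, with a median of -0.43, and 2 of the falls and both rises were called under every alternative. S1PR1, the sphingosine 1-phosphate receptor through which T cells leave lymph nodes and thymus, had 4.68, 5.47 and 4.96 CPM in overexpression and 22.6, 15.4 and 24.2 CPM in vector. Its log2 fold change was -2.04 ± 0.18 (SE; edgeR adjusted p = 7.02e-05). PTGDR2, the prostaglandin D2 receptor of T helper 2 cells, fell with -1.55 ± 0.30 (edgeR adjusted p = 0.00343). The leukotriene B4 receptor genes LTB4R and LTB4R2, whose spans overlap on the same strand in GENCODE 29 so that reads may be shared, rose with 0.66 ± 0.08 and 0.42 ± 0.07 (SE; edgeR adjusted p = 0.000453 and 0.00239).

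Of 17 transcription factor genes tied in T cells to receptor genes 16 were tested, 7 fell and 2 rose, with a median of -0.22, and 4 of the falls and neither rise were called under every alternative. YY1, known as a repressor of CXCR4, had a log2 fold change of -0.73 ± 0.04 (SE; edgeR adjusted p = 1.02e-05). MAF, a factor of T helper 2 and follicular helper T cells, had 15, 9 and 6 estimated counts in overexpression and 66, 156 and 143 in vector. It fell with -3.53 ± 0.43 (SE; edgeR adjusted p = 0.000325), with overexpression replicates 2 and 3 under the floor of 12. STAT4 and NOTCH1 rose with 0.88 ± 0.23 and 0.69 ± 0.19 (SE; edgeR adjusted p = 0.0147 and 0.016). Leaving out overexpression replicate 1 ended the STAT4 call (adjusted p from 0.00192 to 0.0538 over all alternatives), and that of NOTCH1 was ended by leaving out any of overexpression replicates 1 and 3 and vector replicate 1 (adjusted p from 4.37e-07 to 0.0613). GATA3, the T helper 2 factor associated with CCR4, was not called, at 129 ± 5.07 CPM in overexpression and 122 ± 6.85 CPM in vector (SD, n = 3 each).

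**Figure D5:**
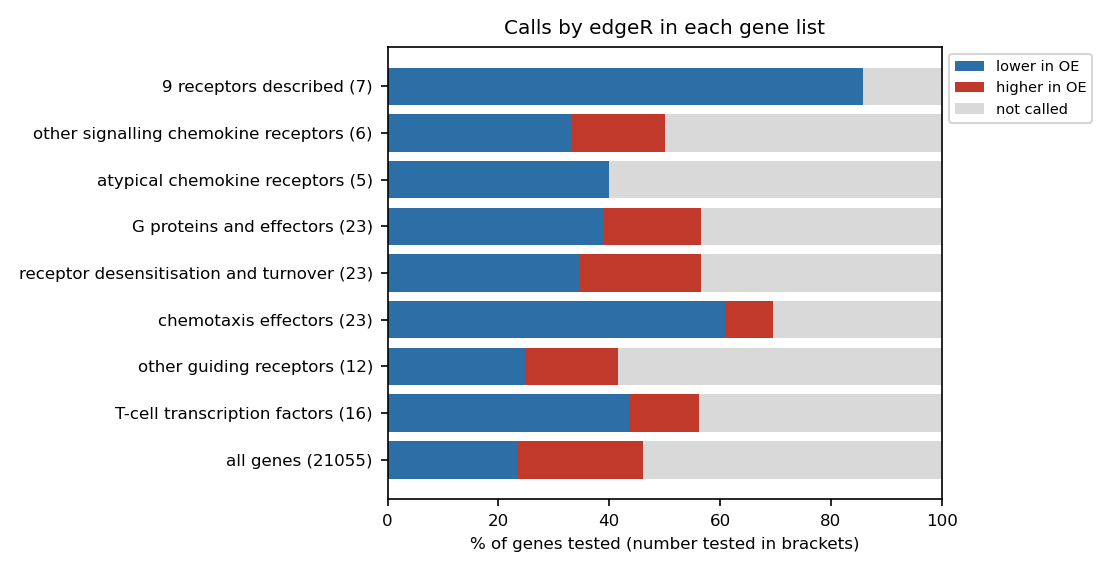
Share of tested genes called lower, called higher and not called in overexpression, in percent, for 8 gene lists and for all 21055 tested genes, with the number tested in brackets. Of the 9 receptors described 6 of 7 tested are called lower, beside 23.4% of all genes.

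Markers of other blood cells that carry these receptors were looked at in the same libraries. Of 10 myeloid markers 4 were tested, of which 2 fell and 2 were not called, with a median log2 fold change of 0.09. The summed level of the 10 was 36.1 to 39.6 CPM in overexpression and 50.5 to 56.9 CPM in vector, nearly all of it AIF1. S100A8 was at 0 in every library, and LYZ, CSF1R, FCGR3A and S100A9 did not pass 12 estimated counts in any. CD14 fell, with 17, 10 and 4 estimated counts in overexpression and 46, 114 and 86 in vector. Its overexpression replicates 2 and 3 were under the floor of 12, so the size of its fall is uncertain. Of 7 B-cell markers 4 were tested, of which 2 fell, 1 rose and 1 was not called. The summed level of the 7 was 28.9 to 37.0 CPM in overexpression and 48.7 to 66.1 CPM in vector. MS4A1, PAX5 and CD22 were at or near 0, so nearly all of that level came from the other markers of the list. Of 6 natural killer cell markers the summed level was 4.21 to 4.71 CPM in overexpression and 3.05 to 6.33 CPM in vector, with NCR1 at 0 in every library. Of the 2 tested, NKG7 was not called and NCAM1 rose, by 2.38 ± 0.66 on the log2 scale (SE; edgeR adjusted p = 0.0192). NCAM1 was at 3.41 without vector replicate 2, and its call was ended by leaving out vector replicate 1 or any of overexpression replicates 1 and 2 (adjusted p between 0.000438 and 0.0611 over all alternatives). The 5 epithelial markers summed to 0.785 to 1.58 CPM in overexpression and 0.192 to 0.446 CPM in vector, with EPCAM at 0 in every library, and KRT8, the 1 that was tested, rose with 1.74 ± 0.42 (SE; edgeR adjusted p = 0.0104). Of the 12 T-lineage markers 7 fell, 2 rose and 3 were not called. CD2 and CD7 had the smallest adjusted p of the falls, with log2 fold changes of -2.57 ± 0.11 and -2.09 ± 0.09 (SE; edgeR adjusted p = 3.02e-06 and 3.08e-06). TRBC1, a T-cell receptor chain gene, and CD4 rose with 0.42 ± 0.05 and 1.75 ± 0.47 (SE; edgeR adjusted p = 0.000427 and 0.0162). CD4 was at 2.53 without vector replicate 2, and its call was lost without overexpression replicate 3 (adjusted p between 0.000323 and 0.0619 over all alternatives). The part of any of these in the receptor levels was not tested.

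For CCR4 and CXCR4, the genes of most similar pattern were sought among 13973 genes, by the root mean square difference of log2 CPM values centred over the 6 libraries. Those nearest to CCR4 were EFEMP1, PREX2 and STAT5A, with differences of 0.244, 0.268 and 0.314 on the log2 scale. EFEMP1, which encodes an extracellular matrix protein, had 3.96, 3.98 and 4.35 CPM in overexpression and 71.5, 64.1 and 71.3 CPM in vector. Like CCR4, all of these genes were low in all 3 overexpression libraries. Those nearest to CXCR4 were DYNLL2, KANSL3 and GLRX5, with differences of 0.0161, 0.0162 and 0.0177. With 2 groups and 6 libraries the measure mostly picks genes with a group difference of like size.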

How the data were processed

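The deposited table holds whole-number expected counts (estimated counts), not scaled to a common total; the submitters' processing notes name build hg38 and, among the tools, StringTie, DESeq2, STAR 2.7.10a and fastp 0.23.2. Neither the annotation release nor whether counting used strand is given in the sources used here.

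Genes were kept by edgeR's default expression filter, normalized with TMM and tested with the quasi-likelihood method of edgeR 4.0.16 (R 4.3.3), with group as the only term and Benjamini-Hochberg adjustment over 21055 genes; values were rounded first. The SE was derived from the F statistic. Values of 1, held by 2716 to 3651 genes per library, and of 2 outnumbered values of 4 in every library, so a unit of 4 does not describe all low values. Low values of 4 outnumbered values of 3 in every library, as if a read pair added 4, though this is not settled. The floor of 12 stands for 3 read pairs if so, and concerns counting error alone; no counting interval was computed. Positions came from GENCODE 29 and RefSeq on GRCh38, the assembly hg38 names, for 40136 of 59248 symbols, and promoter sequences from RefSeq.

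The 9 members and all lists were chosen with earlier results of these data known. Some items are not reported here, and counts leave them out. The other tested receptors were named, and other lists gave up to 2 risen and 2 fallen genes with the smallest adjusted p. Genes outside this rule (GNAI2, GNAI3, ARRB2, GATA3, CD14, CXCL11 and the genes near the receptor block) were added after their values were seen. Alternatives were DESeq2 1.42.0, limma-voom (limma 3.58.1), DESeq2 size factors, upper-quartile factors, TMM factors without chromosomes 2 and 9, no filter, a stricter filter (at least 50 estimated counts and 1 CPM on average), values divided by 4, a replicate block, each library left out and a 2-fold threshold. Figures were drawn with matplotlib 3.10.9.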

Additional observations from a re-analysis of the deposited data

How the results depend on the processing

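CCR4, CCR9 and CXCR4 were called lower under all 15 alternatives, which is a description, since they were chosen on this comparison. The share of all genes called lower under every alternative is not given, so this cannot be set against a background. CCR2 and CXCR3 passed the filter through vector alone, so their calls say nothing of stability. Of all genes 4421 to 5381 were called lower under the alternatives and 4175 to 5576 with 1 library left out. Between 5 and 7 members were called lower over these settings, and 4 members were called and at least 2-fold lower. DESeq2 called a seventh, CCR6, which rests on the 43 estimated counts of vector replicate 3. CCR7 was the member that lost its call, under 7 alternatives, and the cause was not tested. Over all genes 9705 were called, with 8684 to 10028 under the alternatives and 7916 to 10868 with 1 library left out. Scaling moved the median of all genes by at most 0.0484 on the log2 scale. As CPM per kilobase of merged exons, the share of CXCR4 among the 9 genes was 97.2% in overexpression and 89.1% in vector, that of CCR9 2.04% in overexpression and 4.35% in vector, and that of CCR4 in vector 4.76%, since the exon lengths differ.

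No pairing by replicate number was seen: deviations of same-numbered libraries correlated at 0.005, 0.001 and 0.023, and those of other pairs at -0.017 to 0.012. With 3 libraries per group this cannot show whether libraries were prepared in pairs. With the replicate number as a block, 5 members were called, all of them lower, and the CCR7 call was lost. CCR2, CXCR3, CCR6 and CXCR5 were under 12 estimated counts in every overexpression library. For these members low expression and none cannot be told apart at this depth.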
